A study of Homo sapiens with 9 samples.

Results

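Activator protein 1 (AP-1) and early growth response factors were followed in HK-2 cells exposed to transforming growth factor β1 (TGFβ1). The 10 genes were JUN, JUNB, JUND, FOS, FOSB, FOSL1, FOSL2, MAFF, EGR1 and IER3, out of 11963 genes named on the array. They were chosen by symbol, and a gene with several probe sets is represented by the one whose mean over the 9 arrays was highest. HK-2 is an immortalised line derived from human proximal tubule epithelium, and a single line was studied. There were 3 groups with 3 arrays each: untreated HK-2 cells (0 h), HK-2 cells given TGFβ1 for 24 h, and HK-2 cells given it for 48 h. The design text calls the first group vehicle, whereas the sample labels call it untreated. Plates of a time point were pooled within an experiment, and the experiment was repeated on other days at consecutive passages, so that 1 array stands for 1 pool. Time-matched cultures without TGFβ1 were not analysed here, so exposure to TGFβ1 cannot be told apart from time in culture. The growth medium of all groups contained epidermal growth factor at 10 ng/ml as well as hydrocortisone. The labels name neither the TGFβ1 dose nor any change of medium for the stimulation.

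AP-1 is a dimer of leucine zipper proteins, formed by a JUN protein with a second JUN protein or with a FOS protein. Growth factor and stress signals act on these genes through MAP kinases, and SMAD proteins activated by TGF-beta can bind DNA together with AP-1. FOS, FOSB, JUN and EGR1 are textbook immediate early genes, whose short-lived transcripts are induced within minutes of a stimulus and usually decline within hours. The first sampled time after TGFβ1 was 24 h, so the early phase lies outside these measurements. In kidney tubule cells AP-1 is known for its part in injury responses and in the expression of matrix proteases.

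RefSeq's promoter table (GRCh38.p14) held 8 of the 10 genes. FOSL1 and IER3 were the others. The 250 bases before the start site were searched on both strands for 8 motifs. These were the AP-1 motif TGANTCA, the cyclic AMP response motif TGACGTCA, its core TGACG, the AP-1-like motif TGACATCA known from the JUN promoter, the EGR motif GCGNGGGCG, the CArG box bound by serum response factor, the SMAD palindrome GTCTAGAC and the TATA motif TATAAA. The core overlaps the full cyclic AMP response motif wherever that occurs. All 8 genes held the core TGACG at 1 start or more, against 21.2% of the 35116 windows of the table, although the second start of MAFF lacked it. No gene of the 8 held TGANTCA (6.57% of all windows) or GTCTAGAC (0.182%) in this stretch. TGACGTCA was found in JUND and MAFF (1.65% of all windows), TATAAA in FOS, FOSB and JUNB (10.7%), and GCGNGGGCG in EGR1 (8.41%). The windows of the table include those of non-coding genes, and a match is a run of letters, not a measured binding site.

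The promoters of the 3 JUN genes are shown because these paralogues gave different results below, and that of EGR1 because it carries the CArG boxes for which the gene is known. They lie at chr19:12791236-12791485 (plus strand) for JUNB, chr1:58784048-58784297 (minus strand) for JUN, chr19:18281623-18281872 (minus strand) for JUND and chr5:138465229-138465478 (plus strand) for EGR1. Each is written 5′ to 3′ and ends at the base before the start site, and capitals mark the motif matches.
JUNB: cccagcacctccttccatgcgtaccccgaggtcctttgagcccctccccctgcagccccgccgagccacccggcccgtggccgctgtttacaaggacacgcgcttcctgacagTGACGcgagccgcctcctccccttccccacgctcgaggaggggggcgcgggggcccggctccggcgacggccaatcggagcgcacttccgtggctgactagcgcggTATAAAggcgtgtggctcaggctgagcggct
JUN: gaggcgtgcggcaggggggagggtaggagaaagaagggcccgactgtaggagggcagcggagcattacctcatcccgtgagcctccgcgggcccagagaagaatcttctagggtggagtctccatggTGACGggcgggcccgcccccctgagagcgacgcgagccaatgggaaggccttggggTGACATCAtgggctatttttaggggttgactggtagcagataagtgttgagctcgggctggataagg
JUND: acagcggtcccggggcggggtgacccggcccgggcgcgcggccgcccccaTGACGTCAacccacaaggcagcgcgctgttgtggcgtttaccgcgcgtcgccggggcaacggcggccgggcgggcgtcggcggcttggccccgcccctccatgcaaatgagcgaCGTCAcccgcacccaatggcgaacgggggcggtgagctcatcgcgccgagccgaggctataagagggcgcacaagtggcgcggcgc
EGR1: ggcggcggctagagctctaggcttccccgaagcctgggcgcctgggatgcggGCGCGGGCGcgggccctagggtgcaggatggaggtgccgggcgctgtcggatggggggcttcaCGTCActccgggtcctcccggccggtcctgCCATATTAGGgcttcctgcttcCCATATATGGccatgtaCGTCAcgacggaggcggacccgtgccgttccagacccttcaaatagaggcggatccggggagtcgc
JUNB held the core from −137 to −133 and TATAAA from −31 to −26, counted from the start site. JUN held TGACATCA from −67 to −60 (2.37% of all windows) and the core from −123 to −119. JUND held TGACGTCA from −200 to −193. EGR1 held 2 CArG boxes, from −105 to −96 and from −83 to −74, a motif present in 1.16% of all windows. None of the other 7 genes held a CArG box here.

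Expression is given as the deposited log2 value of a probe set, and a difference of 1 on this scale is a 2-fold change. Array medians lay between 2.2 and 2.23, and a gene was tested if 3 or more arrays gave it a value of 4 or higher. This filter passed 4368 genes, among them 8 of the 10. Without detection calls, a value close to the array median cannot be told from background. Arrays with the same replicate number deviated together from their group means (r = 0.378 to 0.662), which arrays of different numbers did not (−0.526 to 0.185), and the number was taken to mark a run. Of the epithelial markers, KRT8, KRT18, KRT19 and EPCAM reached 4 on all 9 arrays and KRT7 and CDH1 on none. Of the 2 kidney transcription factor genes, PAX8 lay between 6.41 and 7.40, and PAX2 between 1.54 and 2.08, under 4 on all 9 arrays. All 5 proximal tubule markers on the array (LRP2, CUBN, AQP1, ANPEP and SLC34A1) stayed under 2, so the proximal tubule origin rests on the label. The 3 leukocyte and 4 endothelial markers reached 4 on no array, and of 5 fibroblast markers LUM alone did, at 5.82 to 6.94. Of the 4 epithelial markers tested, 1 was called, EPCAM, which fell at 24 h (−1.27) and 48 h (−1.17). KRT8 had 0.65 at 24 h (adjusted p = 0.0640, and 0.0123 in a fit with the replicate number as a block) and 0.46 at 48 h, KRT18 had 0.14 and −0.28, and KRT19 had −0.19 and −0.29. PAX8 fell at both times (−0.60 and −0.81). The part of these markers in the results was not tested.

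JUNB, an AP-1 subunit that can restrain JUN activity, rose after 24 h of TGFβ1. Its log2 values were 5.49, 5.46 and 5.71 in replicates 1 to 3 at 24 h, against 4.01, 4.44 and 4.81 in untreated cells. Every 24 h array lay above every untreated array, with a gap of 0.65 between the nearest 2. The mean was 5.55 ± 0.14 at 24 h and 4.42 ± 0.40 in untreated cells (SD, n = 3 each), a log2 difference of 1.13 ± 0.22 (SE; 2.19-fold, limma adjusted p = 0.0214). In pooled RNA of a culture, a change in the share of cells with a transcript and a change in its amount per cell cannot be told apart. Within the 3 runs the difference was 1.48, 1.02 and 0.90, so that run 1, which had the lowest untreated value, gave the largest change. The call was lost without untreated replicate 1 (adjusted p = 0.0702), 24 h replicate 2 (0.0513) or 24 h replicate 3 (0.0891), and without the whole of replicate 1 (0.231), 2 (0.0892) or 3 (0.0609).

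At 48 h JUNB had values of 5.24, 4.91 and 5.52, all above the untreated arrays by at least 0.10. The mean was 5.22 ± 0.30 at 48 h, and the difference from untreated cells of 0.80 ± 0.22 missed the threshold of 0.05 (adjusted p = 0.0874). A fit that takes the replicate number as a block, and so measures the spread of differences within runs, passed it (adjusted p = 0.0146). The fit without the block also passed when untreated replicate 3 was left out (adjusted p = 0.0371). Within runs, 48 h exceeded untreated by 1.23, 0.47 and 0.71. From 24 h to 48 h the value was lower in all 3 runs, by −0.24, −0.55 and −0.19, and this difference did not pass (−0.33 ± 0.22, adjusted p = 0.781).

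JUN, the founding AP-1 subunit, and JUND, a subunit known for its steady expression, gave no call. JUN lay at 6.89, 6.66 and 6.92 in the untreated group, 6.96, 6.78 and 7.07 after 24 h, and 6.96, 6.71 and 7.04 at 48 h. The 3 groups overlapped throughout. The differences from untreated cells were 0.11 ± 0.15 at 24 h (95% interval −0.22 to 0.44, adjusted p = 0.761) and 0.08 ± 0.15 at 48 h (−0.25 to 0.41, adjusted p = 0.912). JUN was higher within all 3 runs at both times on this probe set, but by at most 0.15, and with the median over its 4 probe sets the sign at 24 h turned.

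JUND had values of 8.34, 8.87 and 8.48 in the untreated group, 8.27, 8.20 and 8.57 after 24 h, and 8.33, 8.14 and 8.42 at 48 h. Untreated replicate 2 was the highest of the 9, and most of the difference came from that run (−0.67 at 24 h and −0.74 at 48 h, against −0.06 to 0.09 in the other runs). The differences were −0.21 ± 0.18 at 24 h (95% interval −0.61 to 0.18, adjusted p = 0.603) and −0.27 ± 0.18 at 48 h (−0.66 to 0.13, adjusted p = 0.611).

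FOSL1, which encodes FRA1, a FOS protein without the transactivation domain of FOS, fell by 48 h. Its values at 48 h were 4.46, 4.67 and 4.48, against 5.80, 5.74 and 5.34 in untreated cells. The groups were separated by 0.67. The mean was 4.54 ± 0.12 at 48 h and 5.63 ± 0.25 in untreated cells (SD, n = 3 each), a log2 difference of −1.09 ± 0.18 (2.13-fold lower, adjusted p = 0.00918). The decrease was −1.34, −1.06 and −0.86 within runs 1 to 3, and the call held without any 1 of the 9 arrays (adjusted p from 0.00615 to 0.0479). It was lost without the whole of replicate 1 (0.214) or replicate 3 (0.0712).

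At 24 h FOSL1 lay between its untreated and its 48 h values, at 4.74, 5.26 and 4.80. Every 24 h array was below every untreated array, by a gap of 0.085, and every 48 h array was below every 24 h array, by 0.066. The difference from untreated cells of −0.69 ± 0.18 missed the threshold (adjusted p = 0.0712), and passed with the replicate block (0.0159), without 24 h replicate 2 (0.0405) and without untreated replicate 3 (0.0437). The difference between 48 h and 24 h was −0.40 ± 0.18 (adjusted p = 0.781), with −0.28, −0.58 and −0.32 within runs. FOSL1 was thus ordered by time in every run, while only the step from untreated to 48 h passed the test without the block.

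FOSL2, which encodes the related FRA2, gave no call. It lay at 5.00, 5.56 and 5.62 in the untreated group, 5.15, 5.73 and 5.24 after 24 h, and 5.19, 5.21 and 5.37 at 48 h. The runs went in different directions, and the differences were −0.02 ± 0.21 at 24 h (95% interval −0.49 to 0.45, adjusted p = 0.977) and −0.14 ± 0.21 at 48 h (−0.61 to 0.33, adjusted p = 0.885). FOS and FOSB, the classical immediate early FOS genes, stayed under the filter on all arrays and were not tested. FOS ranged from 1.23 to 2.36, and its highest value was that of untreated replicate 3, where the other untreated arrays were at 1.23 and 1.58. FOSB ranged from 1.86 to 2.08. Both ranges lie near or under the array median, where a change cannot be read, and this array carries 1 probe set for each.

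MAFF, a small MAF protein that has no transactivation domain and pairs with other leucine zipper proteins, varied more between runs than between groups. Its values were 6.63, 7.46 and 7.00 in the untreated group, 6.62, 6.92 and 7.67 after 24 h, and 6.54, 6.52 and 7.17 at 48 h. At 24 h the within-run differences were −0.02, −0.54 and 0.67, covering both directions. The fitted differences were 0.03 ± 0.31 at 24 h (95% interval −0.66 to 0.73, adjusted p = 0.977) and −0.29 ± 0.31 at 48 h (−0.99 to 0.41, adjusted p = 0.804).

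EGR1, a zinc finger transcription factor induced by growth factors, was lower at 24 h within each run, and this did not pass the test. It had values of 4.88, 4.34 and 4.68 in the untreated group, 4.35, 3.96 and 4.05 after 24 h, and 5.23, 3.71 and 4.35 at 48 h. The 24 h and untreated groups barely overlapped, since 24 h replicate 1 (4.35) lay just above untreated replicate 2 (4.34). The 48 h arrays held both the highest and the lowest value of the 9. The difference at 24 h was −0.52 ± 0.33 (95% interval −1.26 to 0.23, adjusted p = 0.514; 0.145 with the replicate block), with −0.53, −0.38 and −0.64 within runs. At 48 h it was −0.21 ± 0.33 (−0.95 to 0.54, adjusted p = 0.895), and run 1 went up by 0.35 while runs 2 and 3 went down by −0.64 and −0.33. EGR1 reached 4 on 7 of the 9 arrays.

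IER3, an early response gene linked to cell survival and induced by growth factors and stress, rose at 24 h and gave no call at 48 h. Its values at 24 h were 9.12, 9.24 and 9.34, against 8.70, 8.81 and 8.62 in untreated cells. The groups were 0.32 apart. The means were 9.23 ± 0.11 at 24 h and 8.71 ± 0.09 in untreated cells (SD, n = 3 each), a log2 difference of 0.52 ± 0.13 (1.44-fold, adjusted p = 0.0475). This call was lost without any 1 of the 9 arrays (adjusted p from 0.0545 to 0.167), while the difference itself stayed between 0.47 and 0.58.

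At 48 h IER3 stood at 8.94, 8.76 and 8.95, overlapping the untreated arrays. The difference from untreated cells was 0.17 ± 0.13 (95% interval −0.11 to 0.46, adjusted p = 0.668). All 48 h arrays lay below all 24 h arrays, and the difference of −0.35 ± 0.13 had an unadjusted p of 0.0203 and an adjusted p of 0.781. The 2 times were therefore not shown to differ after adjustment over all genes.

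**Figure D1:**
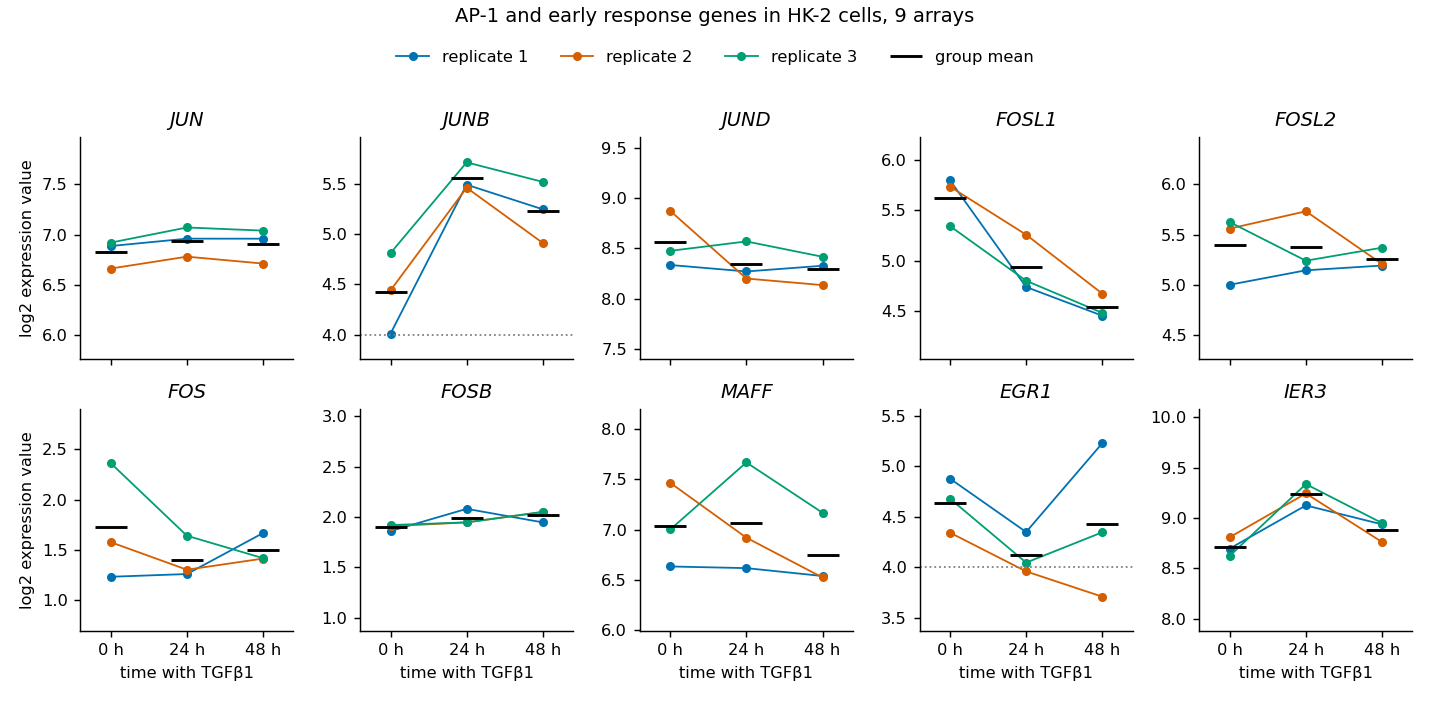
The log2 expression value of each gene is plotted against time with TGFβ1 (0, 24 and 48 h), 1 line per replicate number, with black bars at the group means and a dotted line at the filter value of 4 where it falls within the panel. JUNB is higher at 24 h than in untreated cells in every run, FOSL1 steps down in every run, IER3 peaks at 24 h, and FOS and FOSB stay under 2.5.

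Read across the 8 genes tested, the calls were few. At 24 h 2 genes rose (JUNB and IER3) and 0 fell, where 2.63% of all genes tested were called higher and 2.17% lower, 4.81% in all. Blocking on the replicate number gave 3 calls, the third being FOSL1 (lower), against 11.5% of all genes (5.95% higher and 5.52% lower). At 48 h 0 rose and 1 fell (FOSL1), against 2.27% and 2.17% of all genes, and 2 passed with the replicate block (FOSL1 and JUNB) against 10% of all genes (5.22% higher and 4.81% lower). In all, 4.44% of genes were called at 48 h. The median difference of the 8 genes was 0.0062 at 24 h and −0.17 at 48 h, beside 0.015 and 0.023 over all genes tested. Both comparisons use the same untreated arrays, so they are not independent of each other.

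Groups did not overlap for 3 of the 8 genes at 24 h (FOSL1, JUNB and IER3), and 16.4% of all genes tested were in this state (8.68% higher and 7.72% lower). At 48 h it was 2 of the 8 (FOSL1 and JUNB), against 18.1% of all genes (9.75% higher and 8.31% lower). Within runs, 5 of the 8 genes moved the same way in all 3 runs at 24 h, 3 up and 2 down, against 44.8% of all genes (24.9% up and 19.8% down). At 48 h it was 4 of 8, 2 each way, against 41.5% (23.2% up and 18.2% down). The shares for direction within runs lay near those of all genes. Among the genes tested, JUNB had the 73rd largest increase at 24 h and FOSL1 the 62nd largest decrease at 48 h.

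**Figure D2:**
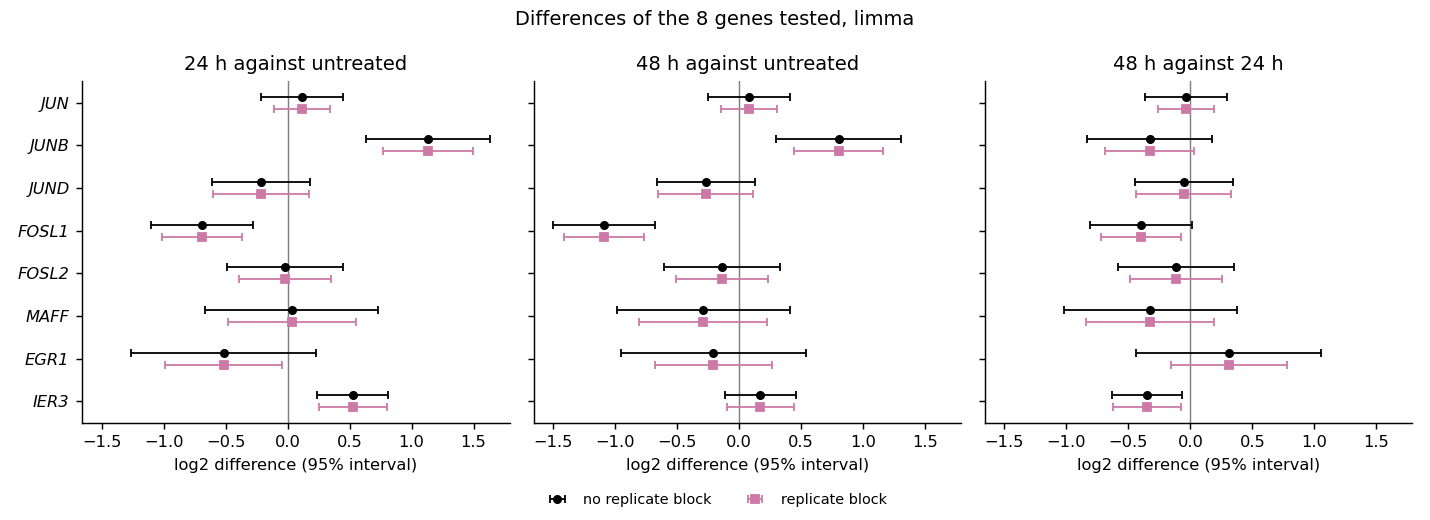
The log2 difference of each of the 8 genes tested is drawn with its 95% interval for 24 h against untreated, 48 h against untreated and 48 h against 24 h, with the replicate number left out of the fit (black circles) and as a block (pink squares). JUNB lies right of 0 and FOSL1 left of 0 in both comparisons with untreated cells, and the interval of EGR1 is the widest of the 8 without the block.

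Between 48 h and 24 h no gene of the 8 passed in limma (adjusted p from 0.781 to 0.965), and none of the 4368 genes did, with or without the replicate block. At an unadjusted p under 0.05, IER3 alone of the 8 passed, beside 219 of all genes tested, and FOSL1 and IER3 with the replicate block, beside 709. FOSL1, JUN, JUNB, IER3 and MAFF were lower at 48 h than at 24 h in all 3 runs and no gene was higher in all 3, where 43.5% of all genes tested moved one way in every run (21.1% higher and 22.3% lower). Groups did not overlap for FOSL1 and IER3, both lower, 2 of the 8, against 12.6% of all genes (6.34% higher and 6.25% lower). JUN was lower by no more than 0.07 in any run on the probe set used. On its next set that passed the filter, JUN was higher at 48 h in all 3 runs. That set had 6.30, 6.04 and 6.45 at 48 h, against 6.12, 5.81 and 6.39 at 24 h. The direction of JUN thus depended on the probe set. An F test over the 3 groups called FOSL1 (adjusted p = 0.0228) and JUNB (adjusted p = 0.0443), among 180 of the 4368 genes (4.12%). IER3 had an adjusted p of 0.102 in that test.

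The 10 genes were read by 19 probe sets, and 5 genes had more than 1. JUNB, FOSL1 and IER3, to which all calls belong, had 1 each, so no second probe set bears on their results. Of the 9 other probe sets, 2 passed the filter, both of JUN, and neither was called at 24 h or 48 h. Their differences were −0.08 and 0.07 at 24 h and 0.08 and 0.15 at 48 h. The JUN set used has a suffix (x_at) that marks probes able to match other sequences. Its range over the 9 arrays was 6.66 to 7.07, while the next JUN set ran from 5.81 to 6.45. Against untreated cells the set used showed the same direction in all runs, and the next set did not. From 24 h to 48 h the next set was higher in every run (mean 0.16), where the set used was lower in every run.

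The other 7 sets stayed under 4. The second EGR1 set lay at or under 1.97 on all arrays and was lower by −0.12 at 24 h and −0.18 at 48 h. The second MAFF set was higher at 24 h by 0.47, with means of 2.72 ± 0.08 in the untreated group, 3.19 ± 0.36 after 24 h and 2.78 ± 0.02 after 48 h (SD, n = 3 each), where the set used gave 0.03. The dim FOSL2 sets gave −0.40 and −0.04 at 24 h, and the dim JUND sets 0.03 and −0.14. None of these 7 was tested.

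**Figure D3:**
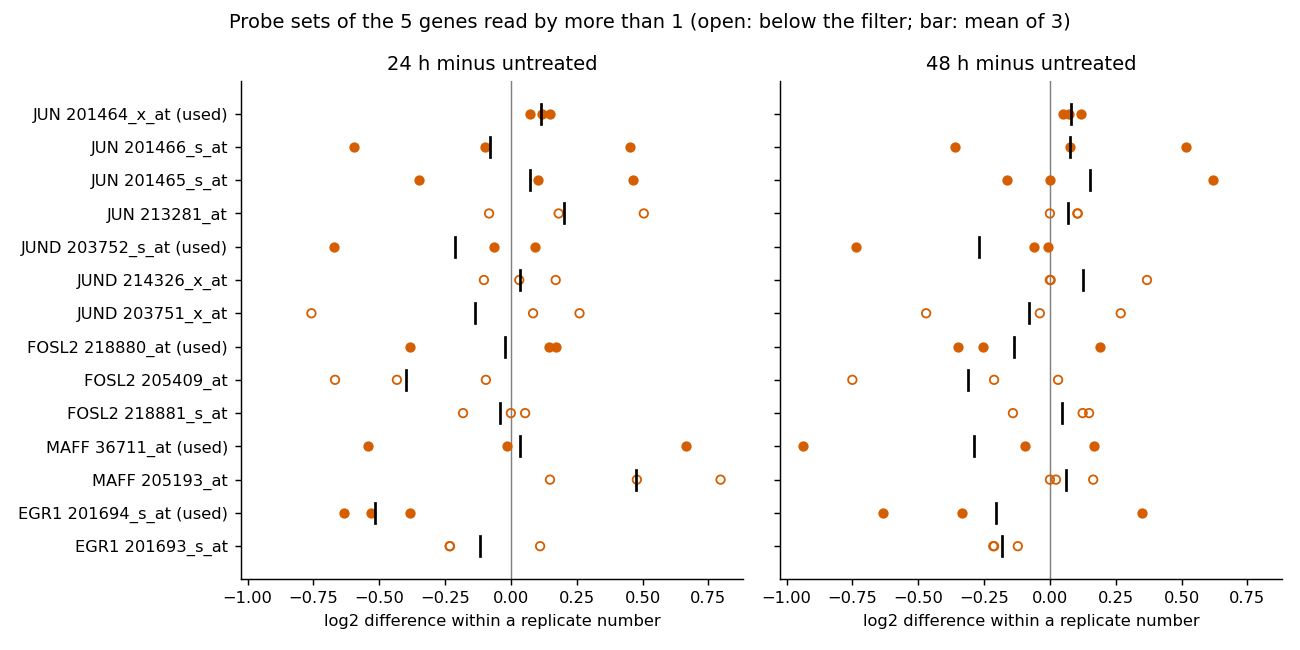
For the 5 genes with more than 1 probe set, each point is the log2 difference from untreated within 1 replicate number, at 24 h (left) and 48 h (right), and the bar is the mean of 3. Filled points passed the filter and open points did not. The JUN set used has the tightest points. The MAFF and JUND sets used spread over more than 0.7 between runs. Other sets do so too, among them the next JUN set and, at 48 h, the EGR1 set used.

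Genes around AP-1 were read as lists of partners, upstream regulators and targets, chosen with earlier results of these data known. Of 24 other AP-1 and leucine zipper partners, 20 were on the array and 7 were tested. None passed at 24 h (median −0.07), and DDIT3, a stress-induced partner of C/EBP and ATF proteins, fell at 48 h. DDIT3 lay at 3.95, 3.83 and 3.96 at 48 h, against 5.11, 4.69 and 4.35 in untreated cells (−0.80 ± 0.19, adjusted p = 0.0416). It passed the filter through the untreated group, where it is high, so its count among the calls carries no weight. Its values at 48 h are under 4, so the size of the difference is uncertain. Its adjusted p was 0.0534 to 0.146 when any array other than untreated replicate 3 was left out, so each of those fits lost the call. At 24 h it had −0.70 (adjusted p = 0.0728, and 0.0358 with the block). ATF2, ATF4, CREB1, CREM, NFE2L1 and NFE2L2 gave no call. Of all genes tested, 4.81% were called at 24 h, and 2.17% were called lower at 48 h.

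Of 20 other immediate early genes and EGR partners, 18 were on the array and 10 were tested. GADD45B, a stress sensor and known early target of TGF-beta, rose at both times and was the only call. It had 8.13, 8.11 and 8.30 at 24 h, against 6.95, 6.40 and 6.50 in untreated cells (1.56 ± 0.16, 2.95-fold, adjusted p = 0.000704). At 48 h it had 7.95, 7.84 and 7.89 (1.27 ± 0.16, adjusted p = 0.00196), and both calls held without any 1 array. MYC, IER2, IER5, CCN1, KLF10, PHLDA1, TRIB1, NAB1 and RHOB gave no call, and the list's median was 0.13 at 24 h and 0.033 at 48 h. Among all genes tested, 2.63% were called higher at 24 h and 2.27% at 48 h. With the replicate block RHOB, a small GTPase, was also lower at 48 h (−0.50, adjusted p = 0.0456, and 0.523 without the block), named here after its values were seen.

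Serum response factor and its ETS partners bind the CArG boxes and neighbouring sites of early genes. The list of 11 also held MRTFA, MRTFB and further ETS genes, and the 4 tested were SRF, ELK1, ELK3 and ETV5. All 4 had differences above 0 at 24 h (median 0.39, beside 0.015 over all genes tested), and none passed without the block. At 48 h 3 were above 0 and 1 below (median 0.19, beside 0.023). From 24 h to 48 h 1 was above 0 and 3 were below. ELK3, an ETS factor that can repress such promoters, rose at 48 h. Its values were 8.36, 8.51 and 8.63 at 48 h, against 7.46, 7.63 and 7.82 in untreated cells (0.87 ± 0.14, 1.82-fold, adjusted p = 0.00736), and the call held without any 1 array. At 24 h the difference was 0.56 (adjusted p = 0.0574, and 0.0206 with the block). SRF had 0.51 at 24 h (adjusted p = 0.306, and 0.0490 with the block) and is named after its values were seen. Among all genes tested, 2.63% were called higher at 24 h (5.95% with the block) and 2.27% at 48 h.

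Of 27 genes of the MAP kinase cascade, which carries growth factor signals to AP-1 and EGR1, 19 were on the array, 11 were tested and 0 passed at either time in limma. Their medians of 0.0149 at 24 h and 0.0275 at 48 h lay beside 0.015 and 0.023 over all genes. Of all genes tested, 4.81% were called at 24 h and 4.44% at 48 h, so 0 of 11 lies near those shares. The smallest p-values of the 11 were those of RPS6KA3, a kinase downstream of ERK, and MAP2K4, an activator of JNK. RPS6KA3 had 6.01, 5.92 and 5.94 at 48 h, against 5.25, 4.69 and 5.43 in untreated cells (0.84 ± 0.24, adjusted p = 0.0934, and 0.0234 with the block). It also passed without 24 h replicate 1 (0.0479). MAP2K4, which reached 4 on all arrays at 48 h and on none of the untreated arrays, had a difference of 0.40 ± 0.14 at 48 h (adjusted p = 0.21). It passed the filter through the 48 h group, where it is high, so its place among the smallest p-values carries no weight. EGFR, the receptor for the growth factor of the medium, had −0.06 at 24 h and −0.03 at 48 h. These are transcript levels, and phosphorylation was not measured.

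Of 23 genes known as AP-1 targets, 21 were on the array, 13 were tested, and at 24 h 4 rose and 0 fell. The interstitial collagenase gene MMP1 had 7.58, 6.78 and 7.85 at 24 h, against 5.36, 4.16 and 5.82 in untreated cells (2.29 ± 0.44, adjusted p = 0.0201). The gelatinase gene MMP9 had 4.95, 4.33 and 6.09 at 24 h, against 2.68, 3.37 and 2.96 in untreated cells (2.12 ± 0.41, adjusted p = 0.0202). MMP9 passed the filter only through its 3 arrays at 24 h, where it is high, so its count among the calls carries no weight and the size of its difference rests on untreated values under 4. TGFB1 itself (1.18 ± 0.26, adjusted p = 0.0352) and HBEGF, an EGF receptor ligand (1.16 ± 0.24, adjusted p = 0.0264), were the other calls. The list's median was 0.22, beside 0.015 over all genes, and 2.63% of all genes tested were called higher.

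At 48 h 1 target rose and 1 fell, where 2.27% of all genes tested were called higher and 2.17% lower. MMP1 reached 8.56, 7.74 and 8.71 (3.22 ± 0.44, 9.32-fold above untreated, adjusted p = 0.00306), a call that held without any 1 array. MMP9 had 3.25, 3.04 and 3.91 at 48 h, under 4 as in untreated cells, so a difference between those groups cannot be read. Its difference between 48 h and 24 h (−1.72 ± 0.41) had an adjusted p of 0.781. IL6, named here after its values were seen, had 5.64, 6.23 and 6.02 at 48 h, against 6.62, 7.05 and 7.03 in untreated cells (−0.94 ± 0.18, adjusted p = 0.0188). TGFB1 (1.095, adjusted p = 0.0506) and HBEGF (0.93, adjusted p = 0.0653) missed the threshold at 48 h and passed with the block (0.0323 and 0.0448). CCND1, CD44, PLAU, PLAUR, TIMP1, CXCL8, SPP1 and VEGFA gave no call at either time.

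Of 12 genes known as EGR1 targets, 10 were on the array and 5 were tested. At 24 h 3 of the 5 rose, where 2.63% of all genes tested were called higher. With the replicate block 4 did, against 5.95% of all genes. The list's median at 24 h was 1.18, beside 0.015 over all genes. EGR1 itself had a difference of −0.52, which was not called. The matricellular gene THBS1 had 1.59 ± 0.36 (adjusted p = 0.0373), the tissue factor gene F3 had 1.54 ± 0.32 (adjusted p = 0.027), and TGFB1, which is on both target lists, had 1.18. At 48 h THBS1 (1.63, adjusted p = 0.0344) and the differentiation inhibitor ID1 (0.97 ± 0.19, adjusted p = 0.0214) rose. Over all genes tested, 2.27% were called higher at 48 h, and the list's median was 1.1, beside 0.023. ID1 had 0.55 at 24 h (adjusted p = 0.192, and 0.0358 with the block). At 48 h F3 had 1.29 (adjusted p = 0.0558, and 0.0017 with the block). Several of these genes are also known as direct targets of SMAD proteins. Without untreated replicate 1 the 24 h calls of MMP1, MMP9, TGFB1, HBEGF, THBS1 and F3 were all lost (adjusted p from 0.057 to 0.137), and without 24 h replicate 3 those of MMP1, TGFB1, HBEGF, THBS1 and F3 were (0.0859 to 0.136). Without untreated replicate 3 those of MMP9, TGFB1 and HBEGF were lost (0.0624 to 0.115). The same happened to MMP1 (0.0545) and F3 (0.0626) without 24 h replicate 1, to TGFB1, HBEGF and THBS1 without 24 h replicate 2 (0.0572 to 0.106), to THBS1 (0.0712) and F3 (0.0657) without untreated replicate 2, and to TGFB1, HBEGF, THBS1 and F3 without 48 h replicate 1 (0.0501 to 0.0638). THBS1 at 24 h was also lost without 48 h replicate 2 (0.0577) or 3 (0.0633). At 48 h, the calls of ID1 and IL6 were lost without untreated replicate 2 or 3 or 48 h replicate 1 or 3 (0.0541 to 0.0996). That of THBS1 was lost without untreated replicate 1 or 2, 24 h replicate 3 or any 48 h replicate (0.0576 to 0.131). Conversely, TGFB1 (0.0157) and HBEGF (0.00865) passed at 48 h without untreated replicate 2, and F3 without untreated replicate 3 (0.0464) or 48 h replicate 2 (0.0451).

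**Figure D4:**
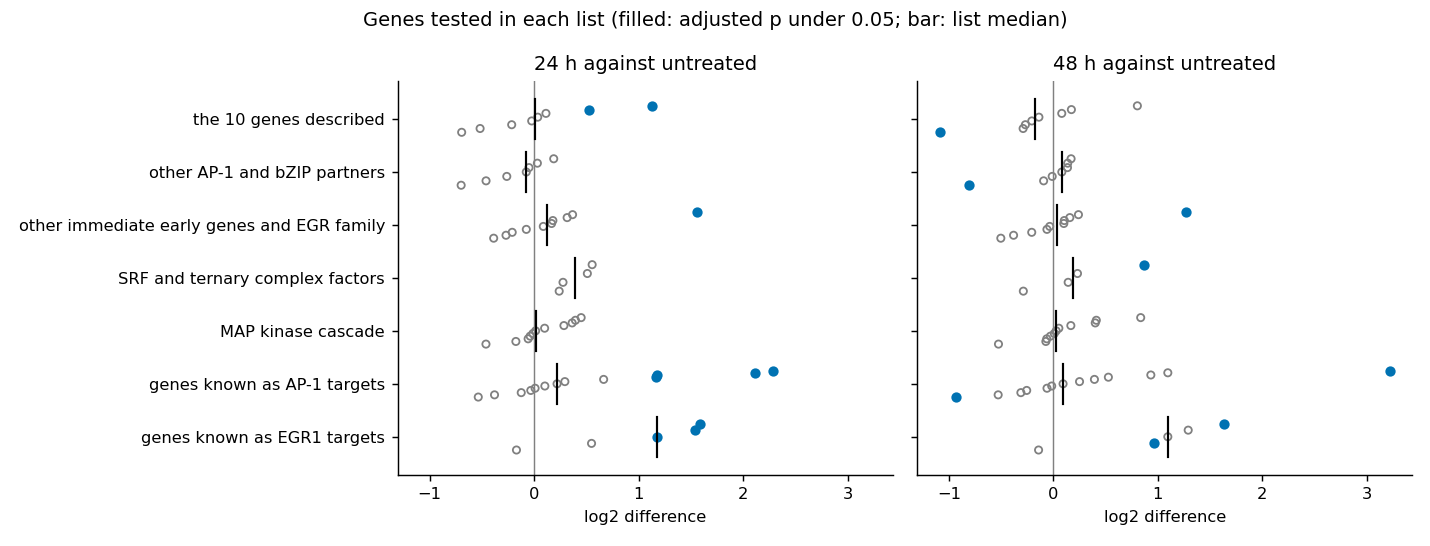
Each point is the log2 difference of a tested gene from untreated cells at 24 h (left) or 48 h (right), by list, filled where the adjusted p was under 0.05, with a bar at the list's median. Filled points stand at both ends of the AP-1 target list at 48 h, where MMP1 is at 3.22 and IL6 at −0.94, and the MAP kinase list has none.

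The genes with the log2 values most like those of the genes called were found by Pearson's r over the 9 arrays, which share runs and groups. For JUNB they were RSU1 (r = 0.972), F3 (0.96) and the Wnt ligand gene WNT5B (0.953). For FOSL1 they were PSME1 (0.969), the MAP kinase-activated kinase gene MAPKAPK3 (0.966) and GPR143 (0.954). For IER3 they were the potassium channel gene KCNK3 (0.952), the autophagy gene MAP1LC3B (0.923) and the collagen gene COL6A1 (0.918). These are descriptions of likeness over 9 arrays, taken as the highest over all genes tested.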

How the data were processed

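HK-2 RNA was measured on 9 Affymetrix arrays of 1 colour. The authors deposited a log2 value per probe set, and the submitters' processing notes name GCRMA (version not given in the sources used here). GCRMA corrects background by probe sequence, normalizes between arrays and summarises a set. The log base is inferred from the highest value of 12.5. The table held 22277 probe sets, 62 of them controls. The platform annotation gave 19064 of the others 1 symbol, 1043 several (not named) and 2108 none. Of the sets with 1 symbol, 19052 were matched by gene ID to a current symbol. The set with the highest mean stood for a gene.

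Genes that reached 4 on 3 or more arrays entered 1 fit over the 9 arrays (lmFit and eBayes from limma 3.58.1, R 4.3.3), with Benjamini-Hochberg adjustment over 4368 genes and a threshold of 0.05. Every adjusted p in the text comes from this fit unless another is named. The script was tested on simulated data. Groups came from the sample titles. Replicate numbers were checked for pairing from correlated deviations, and values blocked on that number are given where they change a call. Replicates are runs of 1 line.

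The genes described were fixed by the rule stated, with up to 4 called genes per list, or the 2 with the smallest p, and 3 most alike genes per called member. Members and lists were chosen with earlier results of these data known. Alternatives were another filter, probe set summary, variance trend, normalization, sample set and left-out arrays. The number of arrays limits the precision.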

Additional observations from a re-analysis of the deposited data

How the results depend on the processing

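The number of the 8 genes past the threshold at 24 h was 2. It was 1 with no filter on low values, with the 2 groups alone, with quantile normalization and with a filter at 6 (which tested 4 of the genes), and 0 to 2 with an array or a replicate left out. At 48 h it was 1, against 2 with the replicate block, 2 with the block and quantile normalization together (chosen after seeing the data), 0 with the filter at 6, which removed FOSL1, and 0 to 2 with arrays left out. At 48 h against 24 h it was 0 in every fit run. The F test called 180 genes, against 491 with the replicate block, 503 with the block and quantile normalization, and 26 to 197 with arrays left out. Over all genes, 501 were called at 24 h with the replicate block, against 210 without it, and 438 at 48 h, against 194. With the 2 groups alone they were 124 at 24 h, and with arrays left out 34 to 213 at 24 h and 33 to 206 at 48 h. Among the 10 genes the block added the calls of FOSL1 at 24 h and JUNB at 48 h and changed no other call against untreated.

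The call of IER3 at 24 h ended with no filter (adjusted p = 0.0538), every probe set tested on its own (0.0533), quantile normalization (0.059) and 2 groups alone (0.151), with a range of 0.016 to 0.386 over its 21 alternatives. JUNB at 24 h ranged from 0.00247 to 0.231, and FOSL1 at 48 h from 0.00191 to 0.214. Signs turned for differences that had no call. With the median over its probe sets JUN was at −0.0041 at 24 h and at 0.12 for 48 h against 24 h. With arrays left out, the 24 h difference ranged from −0.22 to 0.16 for FOSL2, from −0.37 to 0.015 for JUND and from −0.28 to 0.32 for MAFF. The 48 h difference ranged from −0.61 to 0.15 for EGR1 and from −0.52 to 0.036 for MAFF. For 48 h against 24 h the ranges were −0.091 to 0.67 for EGR1, −0.24 to 0.088 for FOSL2, −0.11 to 0.062 for JUN and −0.13 to 0.057 for JUND. The cause of these changes was not tested. Low signal limits FOS and FOSB, which could not be read, and EGR1.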
